A study of Mus musculus with 50 samples.

Results

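Cxcl9 and Cxcl10 are 2 of the 1000 gene targets of a spatial transcript panel (CosMx SMI, which images single transcripts in tissue) that was read on liver sections of control and HIRA KO mice, and 998 of these targets had a count. Both genes were taken by name from the table of counts per cell, and were chosen with earlier results of these data known. Control samples came from wildtype C57BL/6 mice and HIRA KO samples from HIRA fl/fl C57BL/6 mice, all injected with AAV8-TBG-Cre when 6 months old and collected after a further 12 months, when 18 months old. Every animal therefore carried the virus and the Cre recombinase, which the TBG promoter expresses in hepatocytes, and the groups differ in the floxed HIRA alleles. The 50 fields of view fell into 6 tissue areas, 3 control and 3 HIRA KO, and the area was the replicate throughout. The study's methods describe biological replicates with several fields of view per tissue, which the areas were taken to be, since the labels tie no field of view to a mouse. All areas lay on 1 slide, with the control areas on one side and the HIRA KO areas on the other, so that genotype and side cannot be told apart. Hira is not on the panel and its deletion could not be checked here.

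CXCL9 and CXCL10 are small secreted proteins that bind CXCR3, a receptor carried mainly by activated T cells and natural killer cells, and draw those cells towards the source. Interferon gamma induces both genes, and CXCL10 answers more readily to type I interferons and to NF-kappa B as well. In liver, hepatocytes, sinusoidal endothelial cells and macrophages can all make them during hepatitis, where lymphocytes gather in the lobule or the portal tract.

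The genes are close neighbours in a small chemokine locus on mouse chromosome 5. RefSeq places Cxcl9 (gene 17329) at 92321331 to 92328079, Cxcl10 (gene 15945) at 92346638 to 92348889 and Cxcl11 at 92359544 to 92363296 on GRCm38.p6. The promoter windows of both members are shown because both genes stood high in the same place in the largest group of cells described here. Each window runs from 250 bases before to 50 bases after the start of transcription and is written 5′ to 3′ on the minus strand, which carries both genes, with the matches to 2 motifs in capitals.
Cxcl9, chr5:92328030-92328329: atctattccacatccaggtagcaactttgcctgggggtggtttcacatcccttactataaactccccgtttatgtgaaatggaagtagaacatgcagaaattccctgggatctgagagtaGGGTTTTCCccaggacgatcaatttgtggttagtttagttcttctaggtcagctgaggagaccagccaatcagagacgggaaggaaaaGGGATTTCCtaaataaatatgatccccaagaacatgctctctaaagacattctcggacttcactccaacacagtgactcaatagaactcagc
Cxcl10, chr5:92348840-92349139: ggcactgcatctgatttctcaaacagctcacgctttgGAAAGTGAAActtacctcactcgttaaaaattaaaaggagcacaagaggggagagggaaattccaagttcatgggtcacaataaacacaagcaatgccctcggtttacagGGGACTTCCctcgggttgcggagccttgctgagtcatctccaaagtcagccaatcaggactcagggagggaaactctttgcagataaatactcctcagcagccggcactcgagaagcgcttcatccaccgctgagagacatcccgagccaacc
GGGNNTTCC, a core of the sites that NF-kappa B binds, was found 2 times in the Cxcl9 window and 1 time in the Cxcl10 window, and 5.82% of all 32851 promoter windows hold it on either strand. The core of the interferon-stimulated response element, written here as GAAA, any 2 bases and GAAA again, was found in the Cxcl10 window from 213 to 204 bases before the start, and 3.44% of all windows hold it. Of 4 motifs searched, CCAAT also matched in both windows (37.4% of all windows) and TTCNNNGAA (8.30% of all windows) in neither. The motifs do not overlap in these windows, and they were chosen with the sequences in view.

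Both chemokines were low over most of the tissue and stood close to the background. After the cell filters 49665 cells remained, 6801 to 10171 per area, with 718991 to 1542205 gene counts per area. Cxcl9 gave 4494 counts in all and ranked 622 among the targets, whereas Cxcl10 gave 6739 and ranked 260. The 10 negative probes, which match no mouse transcript, gave 1107 to 3828 counts each. Cxcl10 exceeded the highest negative probe in all 6 areas and Cxcl9 in 3 of 6. Within cells, 53.2% of Cxcl9 transcripts lay over the nucleus (Wilson 95% interval 51.7 to 54.6), against 48.9% for Cxcl10, 47.7% for the other targets and 28.9% for negative probes. This interval pools the transcripts of all areas and covers counting error only, not the spread over areas.

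Cells with several counts were few, but more numerous than for any negative probe. Cxcl9 reached 3 or more counts in 140 cells, called Cxcl9-positive from here on, and Cxcl10 did so in 201 cells, whereas the negative probes did so in 4 to 39 cells. Outside field of view 13 there were 17 control and 38 HIRA KO cells for Cxcl9, and 59 and 96 for Cxcl10. The most counts in a cell were 13 for Cxcl9 and 10 for Cxcl10. In 24 cells both genes had 3 or more counts, and 19 of these lay in field of view 13. Field of view 13, in HIRA KO area 1, stood apart from all others, and values are given with and without it where they turn on it.

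The level over all cells did not separate the genotypes. In CPM, the counts of a target scaled to a total of 1000000 gene counts, Cxcl9 stood at 625, 532 and 487 in control areas 1 to 3 and at 1182, 516 and 518 in HIRA KO areas 1 to 3. HIRA KO area 1 was the highest, and the other 2 HIRA KO areas lay among the controls. The group means were 548 ± 70.2 CPM in controls and 738 ± 384 in HIRA KO (SD, n = 3 areas each), beside 420 ± 49.2 and 425 ± 24.7 for the mean negative probe. The fitted log2 fold change was 0.53 (SE 0.25, edgeR quasi-likelihood test with Benjamini-Hochberg adjusted p = 0.671), in a comparison that called 2 of 998 targets, or 0.200%. It was 0.19 (adjusted p = 0.812) without field of view 13 and 0.07 (adjusted p = 0.970) without HIRA KO area 1. By slide row, Cxcl9 was higher in HIRA KO in rows 1 and 3 and lower in row 2. A sum over all cells cannot tell more positive cells from more transcripts per cell.

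Cxcl10 stood at 869, 907 and 1149 CPM in the control areas and at 1242, 935 and 835 CPM in the HIRA KO areas. The groups overlapped, with means of 975 ± 152 and 1004 ± 212 CPM (SD, n = 3 areas each). The log2 fold change was 0.15 (SE 0.15, edgeR adjusted p = 0.85), and 0.02 (adjusted p = 0.979) without field of view 13. With library size as the only scaling, the median log2 fold change over all targets was -0.12 in place of -0.01, that of Cxcl10 was 0.04 and that of Cxcl9 was 0.43.

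**Figure D1:**
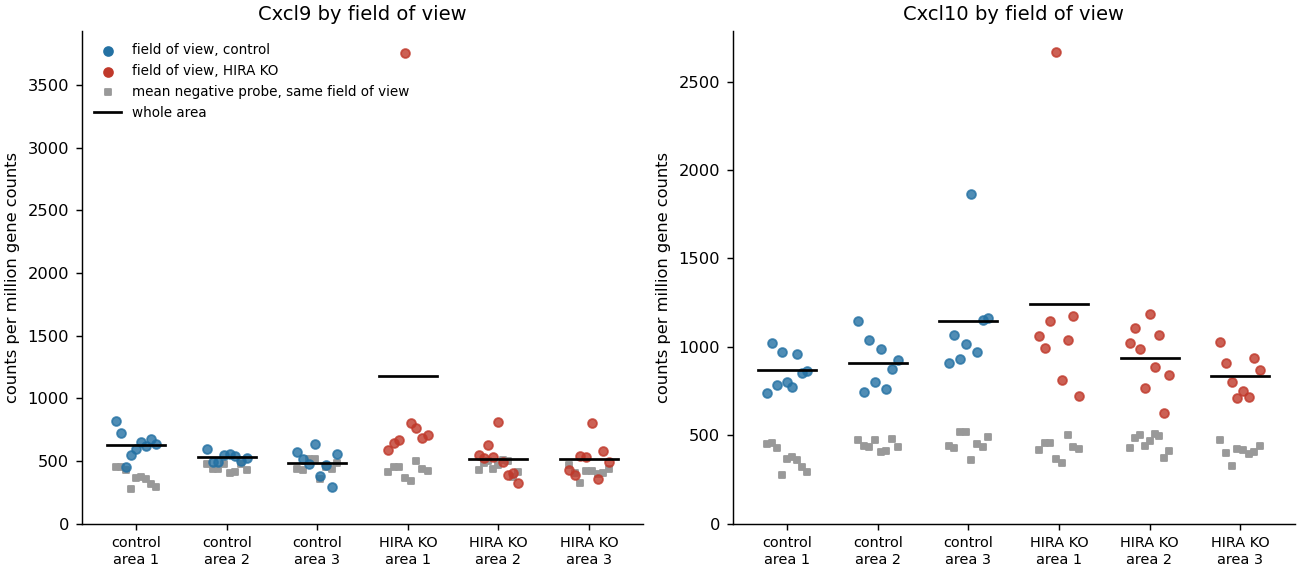
Level of Cxcl9 (left) and Cxcl10 (right) in CPM in each of the 50 fields of view, by tissue area, with the mean of the 10 negative probes in the same field of view as grey squares and the level of the whole area as a black line. Field of view 13 of HIRA KO area 1 stands at 3756 for Cxcl9 and 2665 for Cxcl10, and field of view 39 of control area 3 at 1864 for Cxcl10.

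The share of Cxcl9-positive cells was 0.0369%, 0.147% and 0.0571% in control areas 1 to 3, from 3, 10 and 4 cells. In HIRA KO areas 1 to 3 it was 0.934%, 0.148% and 0.175%, from 95, 15 and 13 cells. The 3 HIRA KO values all lay above the 3 controls, but that of HIRA KO area 2 (Wilson 95% interval 0.0899 to 0.245) and that of control area 2 (0.0799 to 0.270) had nearly the same interval. The exact two-sided permutation test gave p = 0.1, the smallest that 3 areas against 3 allow. Without field of view 13, HIRA KO area 1 stood at 0.116%, from 10 cells, below control area 2, and the exact p was 0.2. Cells were deeper in some areas than in others (median 88 to 147 gene counts), and when each cell was thinned to 50 gene counts and 2 or more Cxcl9 counts were asked, the order was lost. The thinned shares were 0.0774%, 0.103% and 0.111% in controls and 0.825%, 0.0464% and 0.0758% in HIRA KO (exact p = 1.0), with 17699 control and 23583 HIRA KO cells deep enough to be thinned. For Cxcl10 the shares at 3 or more counts were 0.123%, 0.309% and 0.400% in controls and 0.688%, 0.386% and 0.444% in HIRA KO, and the groups overlapped (exact p = 0.2). These intervals cover counting error only.

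All cells left after the filters were grouped with Cxcl9 and Cxcl10 left out of the clustering, and the groups were named from marker genes. The highest level of both genes was in a cluster of 1187 cells led by Mt1, Saa1/2, Mt2 and Fgg, which are metallothioneins and acute-phase genes that hepatocytes raise under stress, together with Krt18, Ccl2, Cxcl1, Lcn2 and Isg15. It passed as hepatocyte-like on 3 markers, the fewest allowed, and is called the acute-phase cluster here. When all targets entered the clustering, a cluster of 1215 cells led by Saa1/2, Cxcl9, Mt1 and Mt2 raised 2 of the hepatocyte markers and stayed unnamed. Over the cells of the acute-phase cluster in all areas Cxcl9 stood at 3302 CPM and Cxcl10 at 2853 CPM, beside 452 CPM for the mean negative probe. The other hepatocyte-like cells, 15947 in number, stood at 522 and 889 CPM, with 480 CPM for the mean negative probe. They held 32.1% of all Cxcl9 and 36.5% of all Cxcl10 counts, with 40.3% of all gene counts. The acute-phase cluster held 9.48% and 5.46%, with 1.88% of all gene counts.

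By area the acute-phase cluster gave Cxcl9 levels of 722, 854 and 654 CPM in controls and 6096, 1230 and 1449 CPM in HIRA KO. The other hepatocyte-like cells gave 604, 548 and 443 CPM in controls and 649, 445 and 524 CPM in HIRA KO. Cxcl9 was higher in the acute-phase cluster in 6 of 6 areas, by 1.19 to 9.39-fold (exact sign-flip test, two-sided p = 0.031, the smallest that 6 areas allow, a comparison chosen after the values were seen). The cluster held 6, 20 and 8 Cxcl9 counts in controls and 358, 23 and 11 in HIRA KO. Its mean negative probe against that of other hepatocyte-like cells was 493 against 410, 478 against 463 and 581 against 511 CPM in controls. For HIRA KO these values were 404 against 518, 422 against 483 and 566 against 476 CPM. In control area 1 the ratio for Cxcl9 was no larger than that for the negative probe. For Cxcl10 the cluster was higher in 4 of 6 areas (exact sign-flip p = 0.188). Without field of view 13 the cluster stood at 854 CPM for Cxcl9 and 1281 CPM for Cxcl10.

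Endothelial-like cells, led by Kdr, Eng and Mrc1, carried Cxcl9 at 897 ± 471 CPM over the 6 areas and were above the other hepatocyte-like cells in 6 of 6 areas, by 1.20 to 2.84-fold (exact sign-flip p = 0.031, also chosen afterwards). T/NK-like cells, with Ccl5, Nkg7 and Cd8a among their leading genes, followed at 842 ± 571 CPM and monocyte/dendritic-like cells at 761 ± 345 CPM. Stellate-like cells at 569 ± 124, Kupffer-like cells at 540 ± 160 and cholangiocyte-like cells at 366 ± 124 CPM came lower (SD, n = 6 areas each). No neighbours in this order of classes differed beyond their spread over areas, with exact sign-flip p from 0.0625 to 0.969 for Cxcl9. For Cxcl10 the order began with the acute-phase cluster at 1814 ± 1472 CPM, then T/NK-like cells at 1355 ± 382, endothelial-like cells at 1199 ± 214 and monocyte/dendritic-like cells at 1129 ± 614 CPM, and its neighbours did not differ either (exact p from 0.156 to 1.0).

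**Figure D2:**
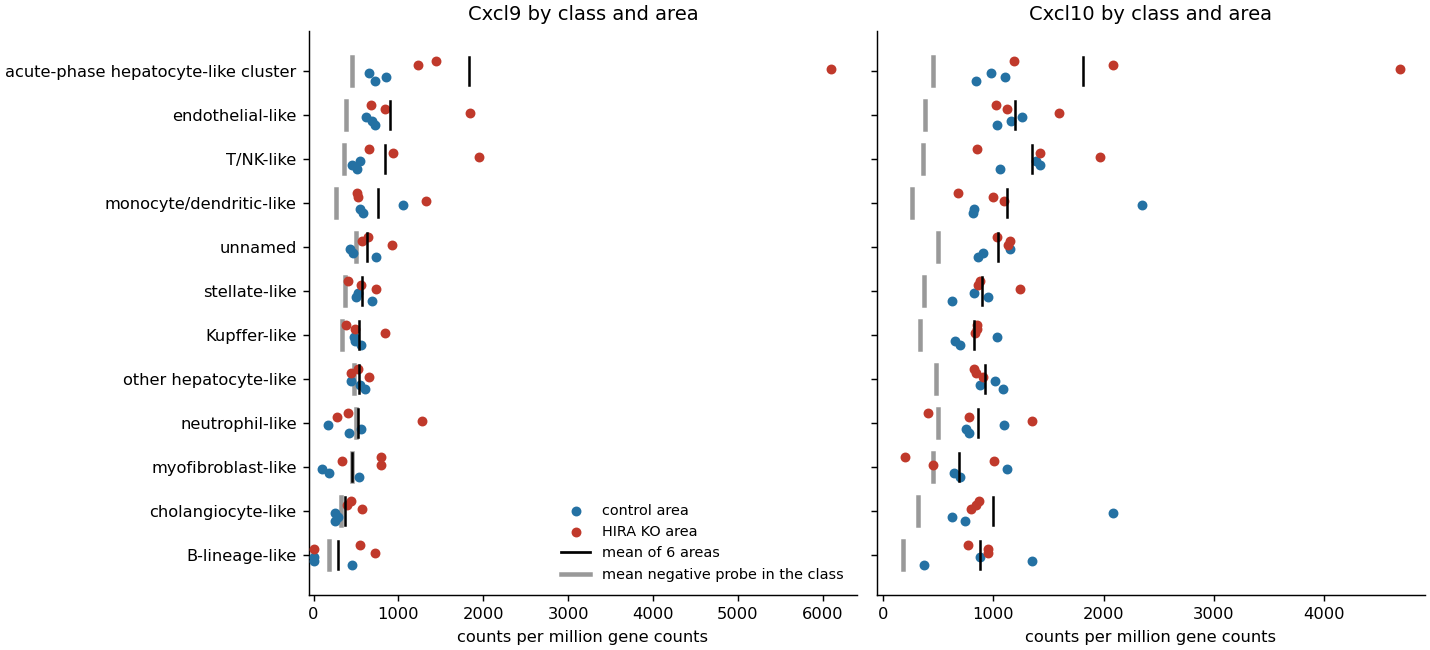
Level of Cxcl9 (left) and Cxcl10 (right) in CPM in each class of cells, with 1 point per tissue area, the mean of the 6 areas as a black line and the mean negative probe of the class as a grey line. The acute-phase cluster has the highest mean for both genes, at 1834 and 1814, drawn up by HIRA KO area 1 at 6096 and 4682.

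Of the 140 Cxcl9-positive cells, 50 belonged to the acute-phase cluster, which held 2.39% of all cells, and 48 of those 50 lay in field of view 13. Another 20 were other hepatocyte-like cells, 19 monocyte/dendritic-like, 18 endothelial-like and 13 T/NK-like. Of the 201 cells with 3 or more Cxcl10 counts, 56 were other hepatocyte-like, 29 of the acute-phase cluster, 23 endothelial-like, 21 monocyte/dendritic-like and 13 T/NK-like. Kupffer-like cells, the resident macrophages of the sinusoid, made up 6 and 12 of these cells.

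Within classes, Cxcl9 rose in HIRA KO in endothelial-like cells and passed in none of the other classes fitted. The endothelial-like call rested on field of view 13. A class was left unfitted when any area held fewer than 100 of its cells. Monocyte/dendritic-like cells (97 in control area 2), B-lineage-like cells and myofibroblast-like cells were therefore not tested. Unnamed cells were not tested either, and the acute-phase cluster was fitted only as part of the hepatocyte-like cells. The endothelial-like level was 724, 686 and 612 CPM in controls and 1847, 837 and 677 CPM in HIRA KO, so that HIRA KO area 3 lay among the controls. The log2 fold change was 0.74 (SE 0.17, edgeR adjusted p = 0.00963), and 2 of 998 targets were called in this class, or 0.200%. It was 0.36 (adjusted p = 0.675) without field of view 13, 0.24 (adjusted p = 0.946) without HIRA KO area 1, and the call was also lost without control area 2 (adjusted p = 0.154) or control area 3 (adjusted p = 0.163).

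In T/NK-like cells Cxcl9 was at 507, 451 and 546 CPM in controls, from 10, 6 and 11 counts, and at 1952, 939 and 657 CPM in HIRA KO, from 103, 25 and 17 counts. The 3 HIRA KO areas lay above all controls, with a log2 fold change of 1.38 (SE 0.36, edgeR adjusted p = 0.375, 0% of 880 targets called). With slide row as a block it was 1.30 and passed (adjusted p = 0.0343, 0.227% of targets called). Without field of view 13 it was 0.63 (adjusted p = 0.866). The log2 fold change of Cxcl9 was 0.62 (SE 0.29, adjusted p = 0.418) in hepatocyte-like cells, where 0.200% of targets were called, but 0.10 without field of view 13 and 0.04 without HIRA KO area 1. In Kupffer-like (0.301% called), stellate-like (0.501%) and cholangiocyte-like cells (0%) it was 0.18, 0.06 and 0.87, and none passed. Cxcl9 counts were too low to be fitted in neutrophil-like cells, where 0% of targets were called. Cxcl10 passed in none of the 7 classes fitted, with log2 fold changes from -0.45 in cholangiocyte-like to 0.36 in stellate-like cells. The value in cholangiocyte-like cells turned to 0.27 without control area 3.

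The spatial pattern of Cxcl9 was dominated by a round group of cells in field of view 13. When cells with 2 or more counts were linked over at most 300 px, 166 cells with 490 Cxcl9 counts joined into a group 2367 by 2760 px across, and 85 cells with 252 Cxcl10 counts joined into a group 2011 by 2116 px across at the same place. No negative probe joined more than 4 cells in this way. The group held 90 cells of the acute-phase cluster, 22 T/NK-like, 17 monocyte/dendritic-like and 16 endothelial-like cells. Field of view 13 gave 49.8% of the Cxcl9 and 33.6% of the Cxcl10 counts of HIRA KO area 1, but 15.7% of its gene counts. The size of a pixel is not given in the sources used here.

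Both levels were lower far from the centre of the group. Cxcl9 stood at 8081 CPM within 400 px, 10391 from 400 to 800 px, 7173 from 800 to 1200 px, 3240 from 1200 to 1600 px, 1145 from 1600 to 2000 px and 880 CPM beyond. Cxcl10 stood at 4692, 8494, 4304, 1290, 1305 and 894 CPM over the same steps. Both genes peaked in the ring from 400 to 800 px, and Cxcl9 reached farther out than Cxcl10. Saa1/2, the serum amyloid A acute-phase genes, followed the same course with 10297, 12880, 7610, 1353, 1065 and 748 CPM.

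The share of T/NK-like cells was 12.3% within 400 px, 23.2% from 400 to 800 px, 12.3% from 800 to 1200 px, 8.37% from 1200 to 1600 px, 5.17% from 1600 to 2000 px and 0.889% beyond. The mean CD3 stain per cell, the protein of the T cell receptor complex, was highest in the same ring at 1406 intensity units, against 713 beyond 2000 px. CD45, carried by all leukocytes, was highest within 400 px at 8342 units and stood at 2973 units beyond 2000 px. The monocyte/dendritic-like share was 23.3% within 400 px and 10.6% in the next ring. Counts per cell were no higher inside, with medians of 93.0, 85.5 and 114 gene counts in the inner 3 steps and 123.5 beyond 2000 px.

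Inside 1200 px lay 562 cells, 1.13% of all cells in the series, with 555 Cxcl9 counts, or 12.3% of the total, and 389 Cxcl10 counts, or 5.77%. The level of Cxcl9 was 10.8-fold and that of Cxcl10 6.04-fold that of the rest of the area. The acute-phase cluster made up 45.4% of the cells inside and 2.59% in the rest of the area, T/NK-like cells 17.1% and 4.24%, and other hepatocyte-like cells 4.80% and 27.6%. By CPM, inside against the rest of the area, the largest ratios over all targets were for Saa1/2 (9977 against 882), Cxcl9 (8532 against 792), Mt1 (14651 against 1956), Mt2 (8594 against 1166) and Cxcl10 (5980 against 991), followed, all named after their values were seen, by Icam1, an adhesion molecule for lymphocytes, at 2245 against 900, and Ccl2, a chemokine for monocytes, at 1660 against 676. As the circle was centred on Cxcl9 counts, these values are a description of the group and carry no test.

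Inside the group Cxcl9 stood higher than in the rest of the area in all 12 classes of cells and Cxcl10 in 11 of 12, the exception being 4 myofibroblast-like cells with no Cxcl10 count. Cxcl9 stood at 18014 CPM in 22 endothelial-like cells, 10261 in 255 cells of the acute-phase cluster, 7889 in 60 monocyte/dendritic-like cells, 7553 in 96 T/NK-like cells and 2464 CPM in 27 other hepatocyte-like cells. In the rest of the area the same classes stood at 1462, 1154, 1023, 841 and 632 CPM. Cxcl10 was at 13145 CPM in the endothelial-like, 7374 in the acute-phase cluster, 5837 in the T/NK-like and 3360 in the monocyte/dendritic-like cells. Transcripts of touching cells can be assigned to the wrong cell, and their part in the levels of the rarer classes was not tested.

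**Figure D3:**
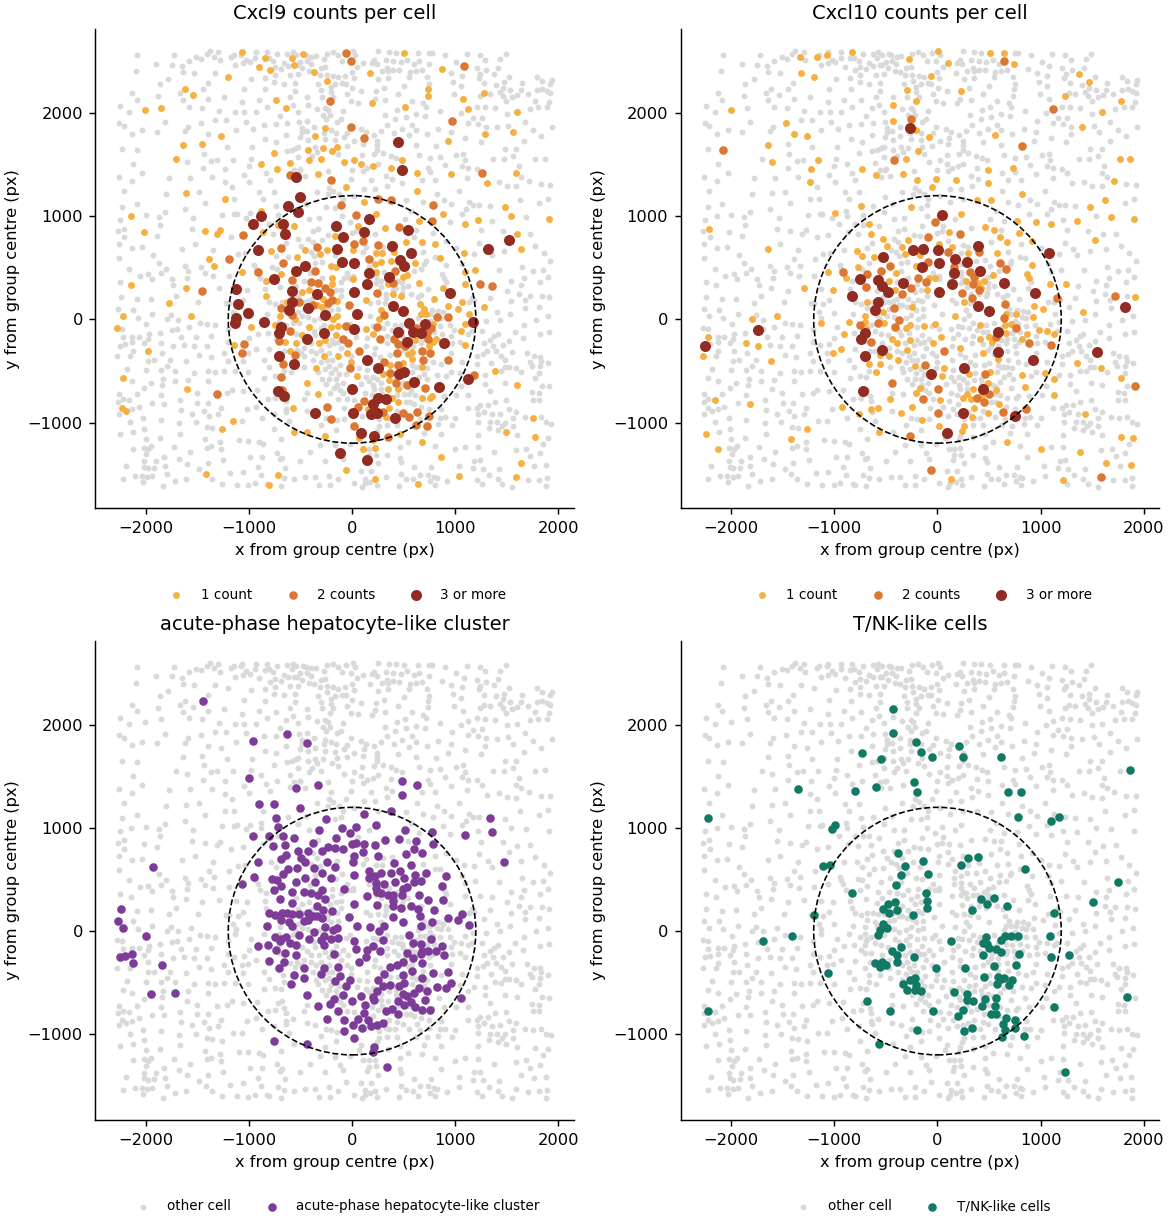
Cells of field of view 13 in HIRA KO area 1, at their x and y distance in pixels from the centre of the largest Cxcl9 group, coloured by Cxcl9 counts, Cxcl10 counts, membership of the acute-phase cluster and membership of the T/NK-like class; the dashed circle has a radius of 1200 px. Of the 504 acute-phase cluster cells of the area 255 lie inside the circle, and of its 503 T/NK-like cells 96.

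Interferon and receptor genes differed less inside the group than the chemokines did. Isg15, a ubiquitin-like interferon-induced gene, stood at 2477, 1659 and 1840 CPM in the inner 3 steps and 1018 CPM in the rest of the area outside field of view 13. Ifng, the gene of interferon gamma, was at 391, 751 and 561 against 574 CPM, where the mean negative probe was at 313, 229 and 374 against 427 CPM. Cxcr3, the receptor of both chemokines, was at 652, 1225 and 1060 against 809 CPM. Over all areas Cxcr3 stood at 1527 CPM in T/NK-like and 839 CPM in hepatocyte-like cells, whereas Ccl5 stood at 22287 and 1239 CPM.

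Smaller groups held either gene. In field of view 30 of HIRA KO area 2, 7 cells with 29 Cxcl9 counts and 11 cells with 35 Cxcl10 counts lay at the same place and included T/NK-like, endothelial-like and acute-phase cluster cells. HIRA KO area 3 had groups of 7 and 6 cells with Cxcl9 in field of view 47 and of 6 cells in field of view 45, the last with 5 monocyte/dendritic-like cells, and these groups carried 1 or 2 Cxcl10 counts each. No Cxcl9 group of 5 or more cells was found in a control area. Control areas 1 to 3 had 38, 56 and 26 cells with 2 or more Cxcl9 counts to be linked, against 255, 69 and 80 in HIRA KO. HIRA KO areas also held more gene counts (mean 1389610 against 896152), and these groups were taken without thinning. Cxcl10 formed 9 groups of 5 or more cells, 3 of them in control areas.

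The largest Cxcl10 group of the controls was a tract in field of view 39 of control area 3. There 18 linked cells held 62 Cxcl10 counts and 7 Cxcl9 counts along a line of dense cells, and 9 of them were monocyte/dendritic-like and 7 cholangiocyte-like. Among the 128 cells nearest to them, 32.8% were monocyte/dendritic-like, 18.8% cholangiocyte-like and 11.7% myofibroblast-like, against 3.24%, 4.01% and 1.53% in the rest of the area. The T/NK-like share was 5.47% against 3.26%, and the mean CD3 stain 613 against 749 units. Targets with large ratios near the tract, chosen after their values were seen, included Acta2 (9986 against 998 CPM) and Mgp (4531 against 529 CPM), of smooth muscle and myofibroblasts, Spp1 (6210 against 1002 CPM), of bile duct cells, and Cd74 (23748 against 4515 CPM), the invariant chain of MHC class II. Cholangiocyte-like cells carried 2083 CPM of Cxcl10 in this area and monocyte/dendritic-like cells 2345 CPM.

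**Figure D4:**
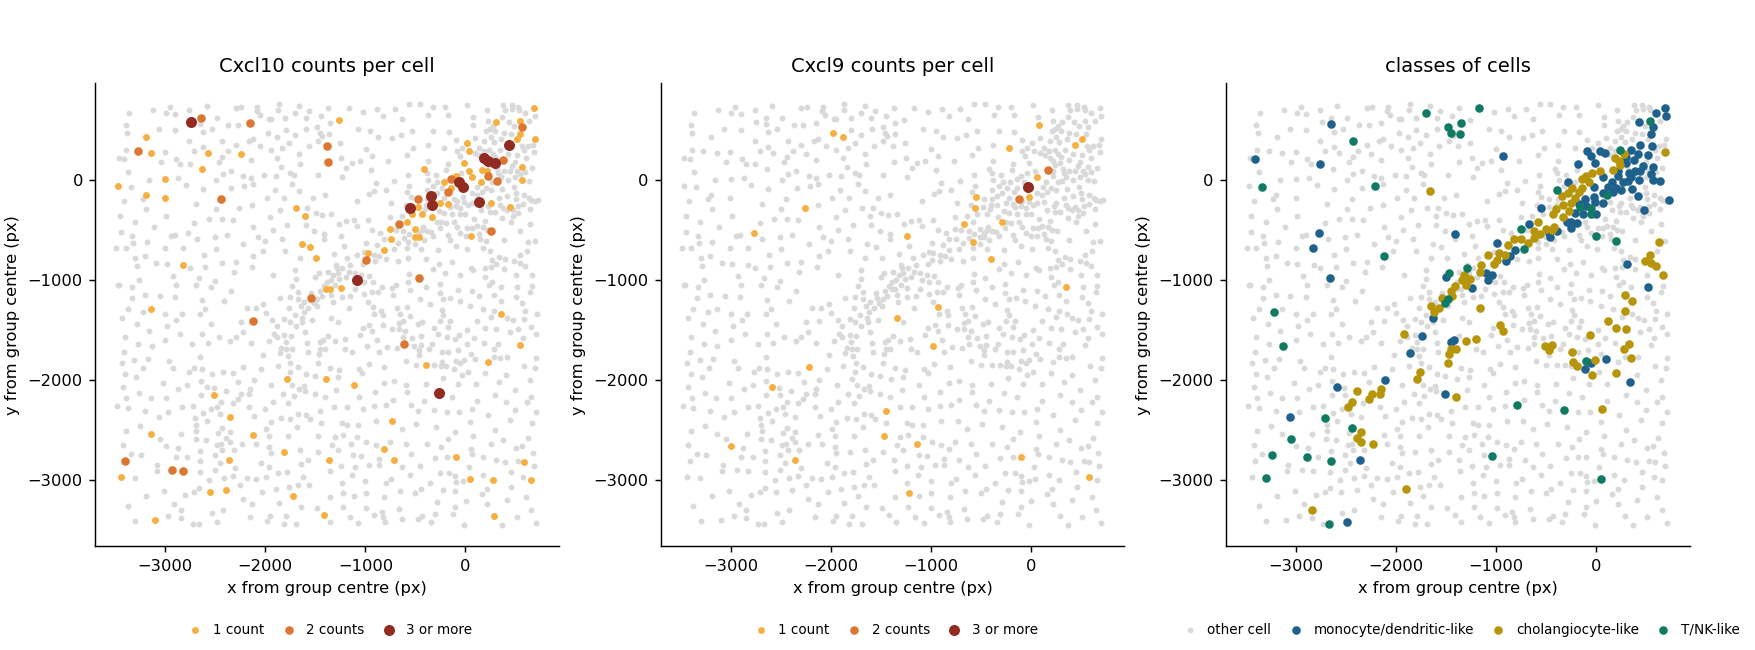
Cells of field of view 39 in control area 3 at their x and y distance in pixels from the centre of its Cxcl10 group, coloured by Cxcl10 counts (left), Cxcl9 counts (middle) and class (right, with monocyte/dendritic-like, cholangiocyte-like and T/NK-like cells marked). The 18 linked cells follow a line of cholangiocyte-like and monocyte/dendritic-like cells, and Cxcl9 stands at 385 CPM in this field of view against 1864 CPM for Cxcl10.

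Cxcl9-positive cells lay near each other in HIRA KO areas. Among the 20 nearest cells of a Cxcl9-positive cell, the share that was Cxcl9-positive was 11.1%, 6.67% and 3.08% in HIRA KO areas 1 to 3, against 0.827%, 0.135% and 0.167% around other cells. In control area 2 it was 1% against 0.134%. In control areas 1 and 3 it was 0 of 60 and 0 of 80 neighbour places. Independent places would allow a share of up to 5% and 3.75%. These places surround 3 and 4 positive cells and are not independent, so the true limit can be wider. The mean difference over the 6 areas was 3.41 percentage points (exact sign-flip p = 0.125), and the difference between the groups of areas had an exact permutation p of 0.1, the smallest possible. Without field of view 13, HIRA KO area 1 had no positive neighbour around its 10 remaining positive cells, and the mean difference was 1.68 percentage points.

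T/NK-like cells made up 14.3%, 11% and 5.77% of the 20 nearest cells in HIRA KO areas 1 to 3, against 4.93%, 2.27% and 2.86% around other cells. In control areas 2 and 3 the shares were 2.5% against 1.72% and 3.75% against 3.26%, and in control area 1 they were 0 of 60 places against 2.74%. The 60 places surround 3 positive cells, so a limit of 5% would hold only if the places were independent. All 3 HIRA KO areas showed more T/NK-like cells around Cxcl9-positive cells by at least 2.91 percentage points, and no control area by more than 0.777. Over the 6 areas the difference was 3.26 percentage points (exact sign-flip p = 0.156), and between the groups of areas the exact permutation p was 0.1. Without field of view 13, the difference in HIRA KO area 1 was 0.704 percentage points. The split between the groups depended on how T cells and neighbours were defined. With T cells taken by 2 or more counts over Cd2, Cd3d, Cd3e and Cd3g, controls differed by 4.59, 2.53 and -0.115 percentage points. HIRA KO areas differed by 1.84, 3.26 and 6.21 (exact permutation p = 0.5). By this definition 5.11% to 10.5% of the cells around other cells were T cells, against 1.72% to 4.93% T/NK-like by class. Cd3e gave 0 counts in control area 3. How many of these cells passed on background counts was not tested. Over neighbours 11 to 30, T/NK-like shares differed by -2.69, 1.31 and 5.42 in controls and 9.12, 5.40 and 1.07 in HIRA KO. Around cells with 3 or more Cxcl10 counts the T/NK-like share was higher in 6 of 6 areas, by 0.26 to 8.26 percentage points with a mean of 2.41 (exact sign-flip p = 0.031), and by a mean of 1.22 without field of view 13 (exact p = 0.031), a comparison that was added after the Cxcl9 values were seen. Around cells with 2 or more counts of each negative probe the mean difference ran from -0.469 to 0.191 percentage points.

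The CD3 stain, a measure that does not use transcripts, was higher around Cxcl9-positive cells in every area. The mean intensity of the 20 nearest cells was 919, 626 and 771 units in control areas 1 to 3, against 715, 595 and 745 around other cells. In HIRA KO areas 1 to 3 it was 1111, 658 and 1363 units, against 716, 505 and 872. The log2 ratio averaged 0.36 ± 0.26 (SD, n = 6 areas, exact sign-flip p = 0.031, the smallest possible), and 0.45 without field of view 13 (exact p = 0.031). The difference in controls was small in areas 2 and 3, at 0.07 and 0.05, and that of area 1, 0.36, rested on 3 source cells. None of the neighbours in control area 1 was T/NK-like. Without field of view 13 the log2 ratio in HIRA KO area 1 was 1.20, beside a T/NK-like difference of 0.704 percentage points. Around cells with 2 or more Cxcl9 counts the log2 ratios were 0.014, 0.007 and 0.077 in controls and 0.533, 0.126 and 0.301 in HIRA KO (mean 0.18, exact sign-flip p = 0.031). The CD45 stain, added after the CD3 values were seen, was also higher in 6 of 6 areas, by a log2 ratio of 1.12 ± 0.40 (exact p = 0.031). Around cells positive for Cxcl10 the CD3 log2 ratio was above 0 in 4 of 6 areas (mean 0.13, exact p = 0.188). Around cells with 2 or more counts of a negative probe, the mean CD3 log2 ratio was below 0 for all 10 probes.

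**Figure D5:**
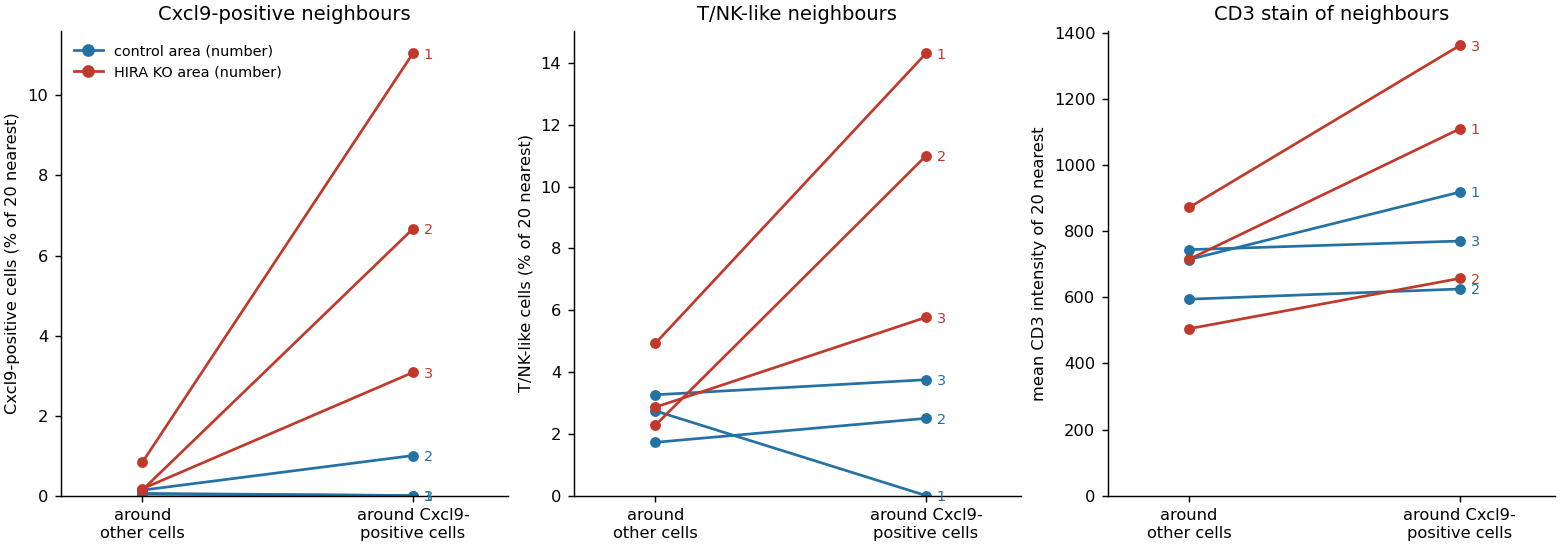
Share of Cxcl9-positive cells (left), share of T/NK-like cells (middle) and mean CD3 intensity (right) among the 20 nearest cells of Cxcl9-positive cells and of all other cells, with 1 line per tissue area and the area number beside it. CD3 is higher around Cxcl9-positive cells in all 6 areas, and the T/NK-like share in 5 of 6.

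To ask which transcripts accompany Cxcl9, cells without Cxcl9 counts that lay among the 20 nearest of a positive cell were compared with all other cells without Cxcl9 counts in the same area. Of 997 targets 4, or 0.401%, were higher near and 0 were lower (edgeR with area as a block; 96 had an unadjusted p under 0.05, and DESeq2 called 6 higher and 1 lower). Saa1/2 had a log2 fold change of 1.29 (SE 0.25, adjusted p = 0.00848), Ccl5, a chemokine made by cytotoxic T cells, 0.71 (SE 0.14, adjusted p = 0.00848), and Cd74 0.85 (SE 0.17, adjusted p = 0.00848). Cxcl10 itself had 0.85 (SE 0.19, adjusted p = 0.0239).

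Near and far levels of Cxcl10 were 855 and 871 CPM in control area 1, 1147 and 877 in control area 2, and 3732 and 1103 in control area 3. In HIRA KO areas 1 to 3 they were 2323 and 969, 1632 and 895, and 681 and 818 CPM. Cxcl10 was thus higher near Cxcl9-positive cells in 4 of 6 areas. Without field of view 13 its log2 fold change was 0.58 (adjusted p = 0.323) and that of Saa1/2 0.86 (adjusted p = 0.189), while 5 targets, or 0.502%, were higher, namely Cd74 (log2 fold change 1.0), Ccl5 (0.79), H2-Eb1 (0.83), Cd52 (0.84) and H2-Ab1 (0.70). Cd74, H2-Eb1, H2-Ab1 and Cd52 are among the leading genes of the monocyte/dendritic-like class, and Ccl5 and Cd52 among those of T/NK-like cells. Cd74 and Cd52 are also among those of B-lineage-like cells. The mix of classes near and far was not held fixed in this comparison of all cells. Among hepatocyte-like cells alone 3 targets, or 0.301%, were higher near, Saa1/2 (1.72, adjusted p = 6.16e-10), Cxcl10 (1.01, adjusted p = 0.000573) and Mt2 (0.90, adjusted p = 0.0435). The near sums held 4, 69 and 21 such cells in control areas 1 to 3. HIRA KO areas 1 to 3 had 203, 71 and 64. Saa1/2 was lower near in control area 1 (0 against 1140 CPM) and HIRA KO area 2 (648 against 893 CPM). Mt2 was lower near in control area 2 (800 against 944 CPM) and HIRA KO area 3 (674 against 811 CPM). It stood at 7088 against 1218 CPM in HIRA KO area 1. In the same fit Cd74 (0.44) and Ccl5 (0.18) did not pass (edgeR adjusted p = 0.978 for each). This fit was not run without field of view 13. Its hepatocyte-like cells include the acute-phase cluster, which Mt1, Saa1/2 and Mt2 lead, so the share of that cluster near and far enters these values. A change within cells was not tested apart from that share. Without control area 2, none of the 997 targets passed in the comparison of all cells.

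The gene lists gave few further calls near Cxcl9-positive cells. Of 30 other interferon-induced genes 1 passed, Cd74, with 21 above 0 and a median log2 fold change of 0.12, beside 0.01 over all targets. H2-Eb1 (0.66, adjusted p = 0.0650) and H2-Ab1 (0.56, adjusted p = 0.111) did not pass. Of 26 other chemokines and of 18 cytotoxic lymphocyte genes 1 passed, Ccl5, which is on both lists, with medians of 0.01 and 0.07, and of 10 acute-phase genes 1 passed, Saa1/2, with a median of 0.06. Of 17 genes of interferon and its signalling and 15 chemokine receptors none passed the edgeR test, and the medians were 0.03 and 0.09. Ifng (0.22, adjusted p = 0.780) and Cxcr3 (0.18, adjusted p = 0.811) were among those.

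Between the genotypes, over all cells, no member of these lists passed. The medians were 0.06 for the other interferon-induced genes, 0.02 for interferon and its signalling, -0.07 for chemokine receptors, -0.01 for other chemokines, 0.00 for cytotoxic lymphocyte genes and 0.13 for acute-phase genes, against -0.01 over all targets. The targets called between the genotypes, named after their values were seen, were Igha (log2 fold change 1.42) and Col1a1 (0.74), neither of which belongs to the chemokine lists. Cxcr3 had a log2 fold change of -0.09 (adjusted p = 0.85) and Ifng 0.02 (adjusted p = 0.955).

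Across the 50 fields of view, after the mean of each area was subtracted, the targets whose level was most like that of Cxcl9 were Mt2 (Pearson r = 0.73), Saa1/2 (0.63), Cd93 (0.50), Cxcl10 (0.48), Mt1 (0.46) and Plac8 (0.46), among 757 targets above the highest negative probe. For Cxcl10 they included Mt2 (0.57), Icam1 (0.53), Cxcl9 (0.48), Lgals3 (0.47) and Olr1 (0.44). Much of this likeness came from field of view 13. Without it, over 49 fields of view, Cxcl9 and Cxcl10 had an r of -0.02 and Cxcl9 and Mt2 an r of 0.37, while Cxcl9 and Cd93 kept 0.52 and Cxcl10 and Icam1 had 0.39. Fields of view share their section and differ in depth, so these values are descriptions.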

How the data were processed

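CosMx Spatial Molecular Imager data of 5 µm FFPE liver sections were deposited by the authors as counts per cell and target for 52132 segmented cells, with cell position and mean stain intensity, on a scale not stated, per the file headers. Field-of-view labels gave the genotype, and runs of fields of view gave the 6 areas. Cells with under 20 gene counts (2215) or an area over 5 times the geometric mean (252) were left out, as in the study. The members and lists were chosen with earlier results of these data known. Cells were clustered on Pearson residuals (30 principal components, Leiden resolution 1.6, leidenalg 0.10.2) without Cxcl9 and Cxcl10 and named from at least 3 markers. No doublet caller was run. Counts were summed per area and tested with edgeR 4.0.16 after filterByExpr and TMM (adjusted p under 0.05), with DESeq2 1.42.0 and limma 3.58.1 as alternatives, in R 4.3.3. Shares and stains were compared by exact permutation or sign-flip tests over areas. Named genes were the members, list members past the threshold, up to 6 per list and direction, and the 6 most alike by r of log2(CPM + 10). The fits were tested on simulated counts. Promoter windows came from RefSeq (GRCm38.p6), where both members matched. Cell outlines were not used here. Some items are not reported here.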

Additional observations from a re-analysis of the deposited data

Results flagged for a closer look

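Among the fields of view of each area, 3 of 12 tests for a field of view far from the others passed, where chance passes about 1 in 20. Field of view 13 of HIRA KO area 1 was at 3756 CPM for Cxcl9, against 802 for the next highest and a median of 697 over the 8 fields of view of that area. The same field of view was at 2665 CPM for Cxcl10, against 1175 for the next highest. Field of view 39 of control area 3 was at 1864 CPM for Cxcl10, against 1161 for the next highest and a median of 1042.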

How the results depend on the processing

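No paired analysis was possible because the labels give the groups no shared replicate numbers, but slide row, which holds 1 area of each group, was fitted as a block. For Cxcl9 and Cxcl10 over all cells, no setting passed the edgeR test. With 5 areas an exact sign-flip test cannot go below p = 0.0625, so no result over 5 areas could pass. Asking for 2 or more counts gave a T/NK-like difference of 2.12 percentage points that passed (exact p = 0.031), and CD3 log2 ratios of 0.48 with 5 or more counts (4 areas) and 0.31 with the 50 nearest cells missed the threshold. Leaving out an area gave CD3 ratios of 0.30 to 0.42. Of the 13 fits of the members by class 1 passed, 0 without field of view 13 and 2 with slide row as a block, both added after the data were seen, and 0 to 2 without an area. Near Cxcl9-positive cells, where 4 genes were called, the count was 10 with 2 or more counts, a setting that lost Ccl5 (adjusted p = 0.273), and 7 with DESeq2, which lost Saa1/2 (adjusted p = 0.543) and Cxcl10 (adjusted p = 0.159). Cd74 was lost with the 10 nearest cells (adjusted p = 0.124), and Cd74 and Ccl5 in hepatocyte-like cells alone (adjusted p = 0.978 for each). The count was 0 to 6 without an area (0 without control area 2, 1 without HIRA KO area 3, 2 without HIRA KO area 1). The cause was not tested. Cxcl9 lies near the background of the negative probes, which limits what can be seen outside groups of positive cells.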
